A study of Mus musculus with 13 samples.

Results

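The genes described are the 9 that encode the paracaspase Malt1, its partner Bcl10, the Rel/NF-κB subunits and a pair of NF-κB inhibitors: *Malt1*, *Bcl10*, *Rel*, *Rela*, *Relb*, *Nfkb1*, *Nfkb2*, *Nfkbia* and *Tnfaip3*. They were picked by symbol out of 24417 named genes, and all 9 were found in both tables and passed the filter on low counts in every fit. They were chosen with earlier results of these libraries in view, so their own values and the calls on them are given as a description. In male mice, bulk RNA-seq compared control Treg cells of *Foxp3*DTR-GFP/y *Cd4*creERT2 mice (n = 3), rescued Treg cells of *Foxp3*LSL/y *Cd4*creERT2 mice (n = 3) and Treg “wannabes” of *Foxp3*LSL/y *Cd4*wt mice (n = 2). All male mice were given 4-hydroxytamoxifen on day 14 after birth and were analyzed on day 21. The paper reports overt autoimmune disease in *Foxp3*LSL/y males by the day of treatment and calls the control males healthy. Health therefore differs along with genotype between control Treg cells and both other male populations, and these cannot be told apart. In female mice aged 9 to 11 weeks and treated with diphtheria toxin, resting “wannabes” of *Foxp3*LSL/WT *Cd4*wt mice (n = 3) were compared with activated “wannabes” of *Foxp3*LSL/DTR *Cd4*wt mice (n = 2). All cells came from spleen and lymph nodes of C57BL/6 mice. A “wannabe” is a T cell that transcribes the *Foxp3* locus from the LSL allele, in which a Thy1.1 reporter and a STOP cassette flanked by loxP sites precede a GFP-tagged *Foxp3*, and therefore makes no Foxp3 protein. The tamoxifen-dependent recombinase is expressed from *Cd4*, which is also active in thymocytes, and removes the cassette in rescued cells. The control mice carry the recombinase and a different *Foxp3* allele. In the activated group, diphtheria toxin removes the Treg cells that carry the DTR allele, whereas *Foxp3*LSL/WT mice have no target for the toxin and stay healthy.

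NF-κB proteins are dimers held inactive in the cytoplasm by IκB proteins. Antigen receptor signals assemble Bcl10 and Malt1 into filaments that recruit ubiquitin ligases and activate the IKK kinases, which mark IκBα (encoded by *Nfkbia*) for degradation and release dimers of RelA (*Rela*), c-Rel (*Rel*) and p50 (made from the p105 precursor of *Nfkb1*). Malt1 is also a protease that cleaves A20 (*Tnfaip3*), RelB and several RNA-binding proteins. A noncanonical arm, triggered by some TNF receptors through the kinase NIK, processes p100 (*Nfkb2*) to p52, the partner of RelB (*Relb*). In Treg cells, c-Rel is known to promote *Foxp3* induction, and deletion of Malt1 or Bcl10 is known to impair Treg development or function. Several members are themselves textbook NF-κB targets, among them *Nfkbia*, *Tnfaip3*, *Nfkb2*, *Rel* and *Relb*.

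Promoter sequences are shown for the members because κB motifs, the sites that NF-κB dimers bind, lie in them. RefSeq promoter windows of 300 bases (250 before and 50 after the annotated start, GRCm38.p6) were at hand for 6 of the 9 genes, with none for *Malt1*, *Nfkb1* and *Relb*. The κB consensus, searched on both strands, was found in 5 of these 6 genes (*Bcl10*, *Nfkb2*, *Rel*, *Nfkbia* and *Tnfaip3*, and not in *Rela*), against 1388 of 27025 genes (5.14%) in the whole table. A match describes the letters only. The motif is in capitals and each stretch is written 5′ to 3′ on the strand of its gene.
Rel, chr11:23771022-23771091, minus strand: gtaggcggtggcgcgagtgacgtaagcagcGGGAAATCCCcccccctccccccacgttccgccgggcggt
Nfkbia, chr12:55492648-55492706, minus strand: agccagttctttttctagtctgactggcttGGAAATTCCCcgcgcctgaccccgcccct
Tnfaip3, chr10:19015411-19015452, minus strand: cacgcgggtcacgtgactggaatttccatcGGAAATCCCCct
Nfkb2, chr19:46305695-46305724, plus strand: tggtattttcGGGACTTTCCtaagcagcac
Bcl10, chr3:145924012-145924040, plus strand: gcgaaggcgGGGAGATCCCgctaaactga
The motif began 92 bases before the start of *Rel*, 29 before that of *Nfkbia* and 12 before an annotated start of *Tnfaip3*, in sequence that GENCODE annotates as lying outside exons. The *Tnfaip3* stretch lies inside the GENCODE span of the gene (chr10:19000910-19015657), and the other *Tnfaip3* window had no match. The *Nfkb2* and *Bcl10* stretches overlap annotated exons. Exons of any gene on either strand were counted, so the gene these exons belong to is not given. *Nfkb2*, which has several annotated starts, had matches in more than 1 of its windows.

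Between 25556783 and 36659638 reads were counted on named genes per library. *Foxp3* mRNA, read from the engineered locus, lay between 865 and 1110 CPM (the count relative to the total of the library) in rescued, between 167 and 252 in control and between 84.2 and 99.8 in male “wannabe” libraries, and between 52.8 and 75.1 in the female libraries. Every Treg library lay above both male “wannabe” libraries; the labels do not give the order of rescued and control cells, which *Foxp3* therefore does not check. The 4 T cell markers found (*Cd3e*, *Cd3d*, *Cd4* and *Cd5*) summed to between 2180 and 3910 CPM. B cell markers summed to at most 44.1 CPM, CD8 T cell markers to at most 27.8, myeloid markers to at most 10.8, NK cell markers to at most 6.83 and erythroid markers to at most 16.2. In these bulk libraries, fewer cells of a type and less RNA per cell cannot be told apart. The study's methods describe the male libraries as biological replicates and name 3 resting and 2 activated mice for the female ones, without litters. The sample labels, the column headers and the study's methods all give 3 resting and 2 activated libraries and were followed, whereas the design text of the series gives these 2 numbers the other way round.

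**Figure D1:**
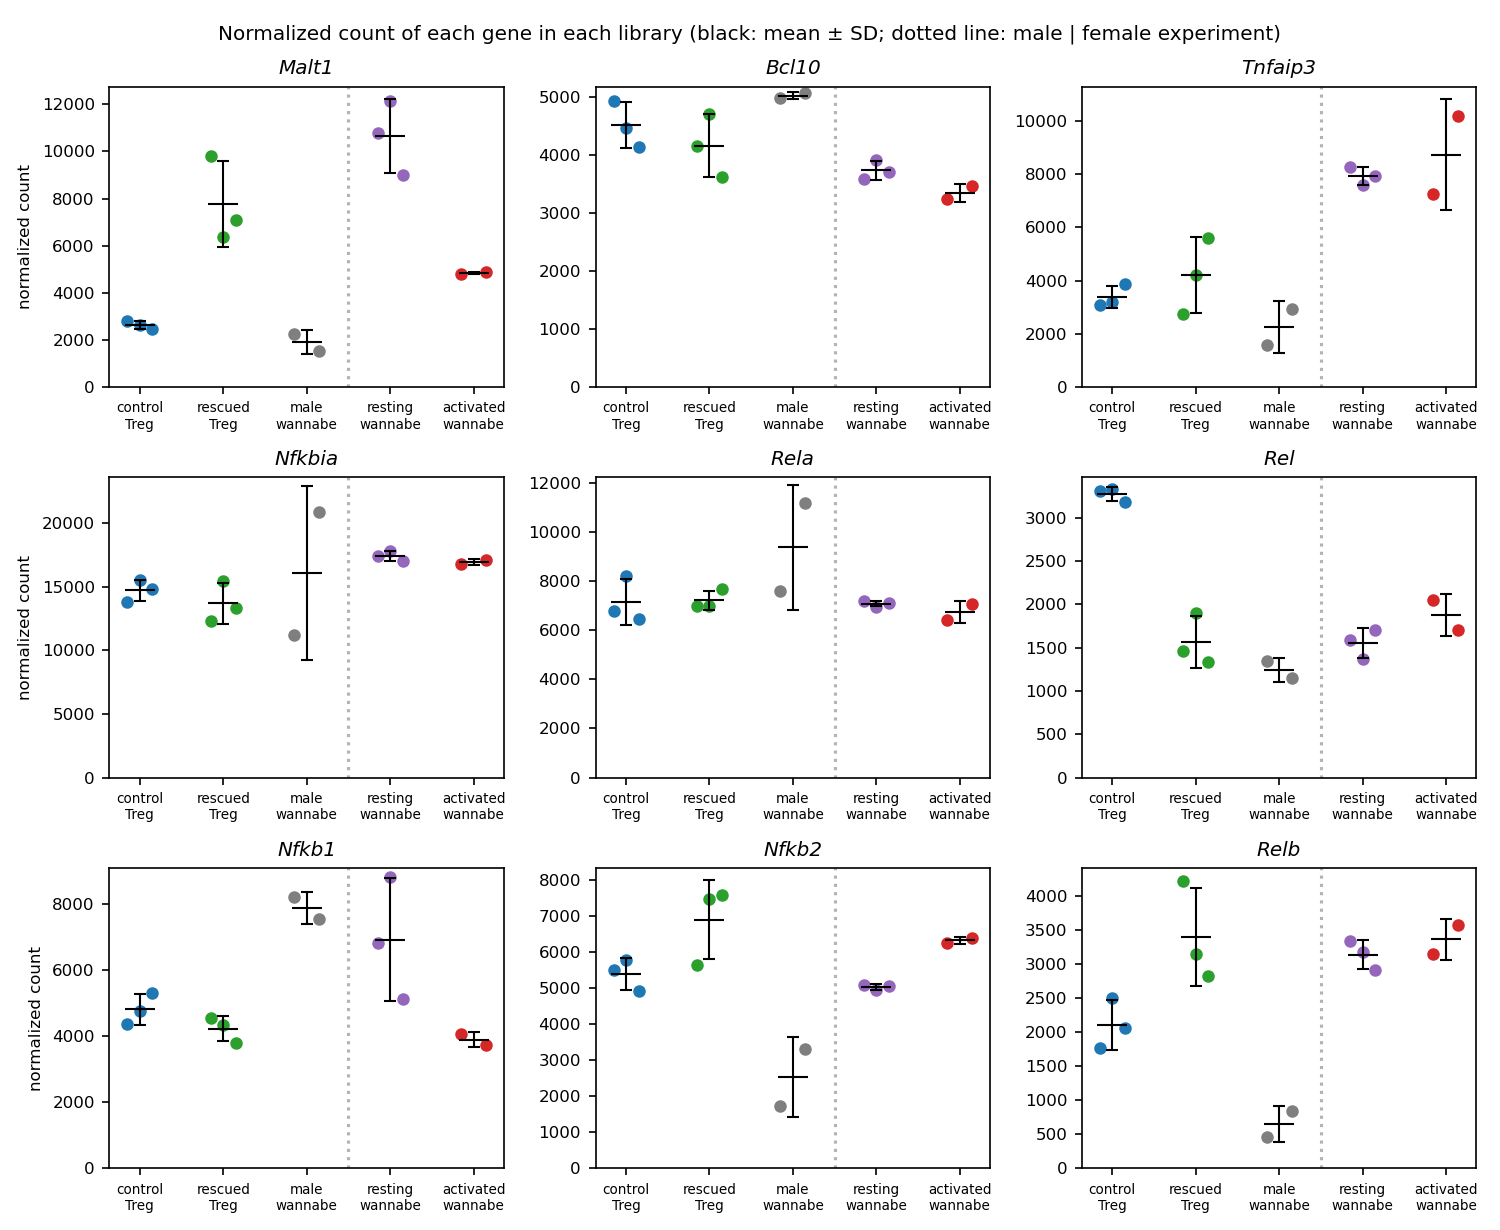
Normalized read count of each member (y axis, linear, from 0) in each of the 13 libraries (points), by population (x axis), with the mean and SD in black. The male populations lie left of the dotted line and the female populations, normalized separately, right of it; *Malt1* reached between 6378 and 9824 in rescued Treg libraries and between 2467 and 2793 in control Treg libraries.

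The members differed widely in level. Per kilobase of the longest coding transcript, *Nfkbia* had the highest level in all 5 populations, with means between 264.5 and 371.4 normalized CPM per kilobase, *Rela* the next highest and *Rel* the lowest. *Malt1* took different places in this order. It was eighth in control Treg cells (15.06 ± 0.936, SD, n = 3) and in activated “wannabes” (30.64 ± 0.304, n = 2), sixth in rescued Treg cells (44.36 ± 10.4, n = 3) and number 3 in resting “wannabes” (67.27 ± 9.89, n = 3), where its libraries overlapped those of *Bcl10*, the next gene down. In male “wannabes” it was seventh (10.85 ± 2.88, n = 2) and overlapped *Relb* below it. In control Treg cells *Rela* overlapped *Bcl10* (70.51 ± 6.29), whereas in every population the libraries of *Nfkbia* stood clear of those of *Rela*. Male and female libraries were normalized separately, so only the order, not the level, is set side by side. The order depends on the length used. With the union of all annotated exons, a choice made after the data were seen, *Nfkbia* and *Rela* kept their places, while *Malt1* was number 9 in control Treg cells and male “wannabes”, below *Rel*, number 7 in rescued Treg cells and resting “wannabes” and number 8 in activated “wannabes”.

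Counts of members past the threshold were small, and their background differed between comparisons. A gene was called at an adjusted p under 0.05 (Benjamini-Hochberg) in the quasi-likelihood F test of edgeR. Between rescued and control Treg cells, 2 of 9 members were called, *Malt1* higher and *Rel* lower, against 2.30% of the 14925 genes tested (1.43% higher and 0.864% lower). The libraries of 3 members (*Malt1*, *Rel* and *Relb*) did not overlap, against 24.2% of genes. Between control Treg cells and “wannabes”, 4 were called, *Relb*, *Rel* and *Nfkb2* higher and *Nfkb1* lower in Treg cells, against 16.2% of genes (9.92% higher and 6.27% lower). Libraries did not overlap for 7 members, against 46.1% of genes. Between rescued Treg cells and “wannabes”, 4 were called, *Relb*, *Malt1* and *Nfkb2* higher and *Nfkb1* lower, against 14.1% (10.0% higher and 4.06% lower), and 5 members did not overlap, against 42.7%. Both of these comparisons use the same 2 “wannabe” libraries, and the first 2 comparisons share the control libraries. Between activated and resting “wannabes”, 3 were called, *Malt1* and *Nfkb1* lower and *Nfkb2* higher in activated cells, against 22.5% of 13166 genes (11.3% higher and 11.2% lower), and 5 members did not overlap, against 56.5%. The median log2 change of the members was 0.01, 0.47, 0.33 and −0.04 in these comparisons, in the order given, and that of all genes −0.03, 0.09, 0 and −0.01.

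**Figure D2:**
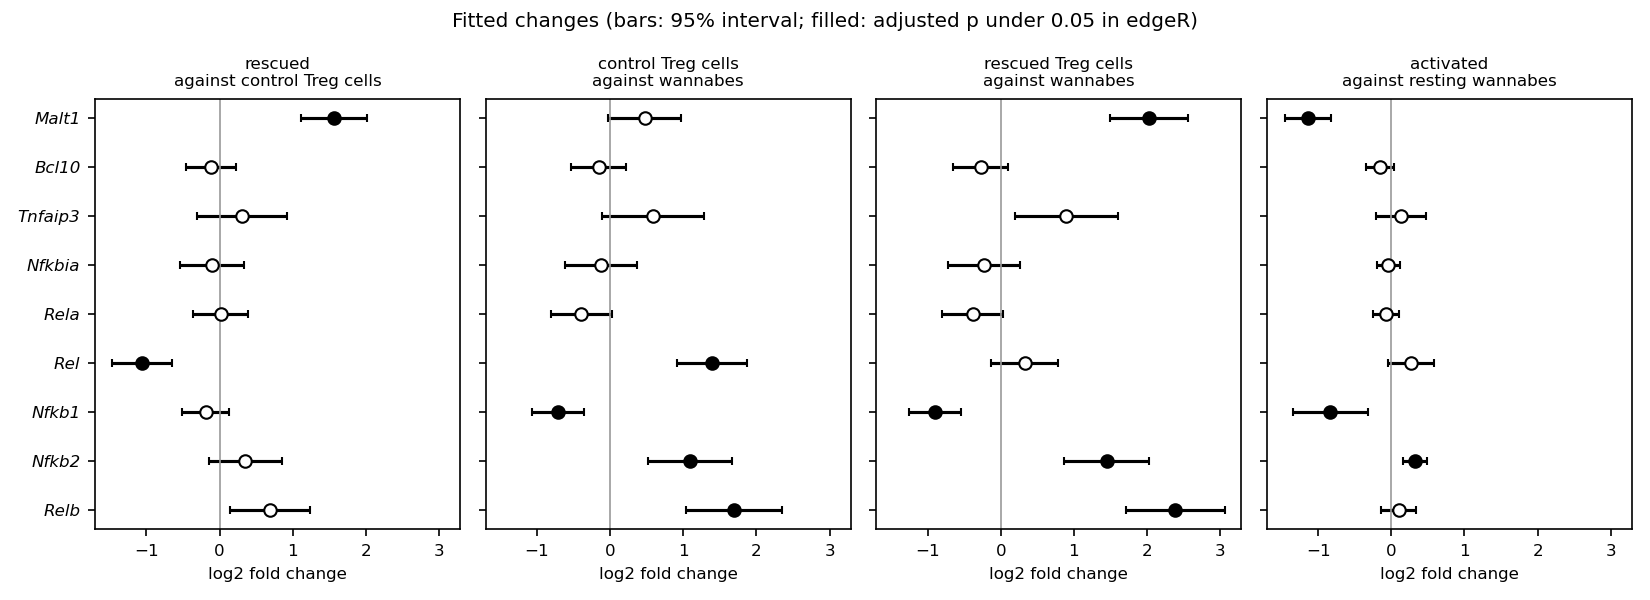
Log2 fold change (x axis) of each member (rows) in 4 comparisons (panels), with the 95% interval of the edgeR fit as a bar and filled points for genes past an adjusted p of 0.05. *Malt1* lies at 1.56 in rescued against control Treg cells and at −1.13 in activated against resting “wannabes”.

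*Malt1* (chr18:65430938-65479067, plus strand, GRCm38), the scaffold and protease of the complex, had normalized counts of 2793, 2640.2 and 2466.5 in control Treg libraries 1 to 3, of 9824, 6378 and 7068 in rescued Treg libraries and of 2253 and 1541 in male “wannabes”. Every rescued library was higher than every control library, and every control library higher than both “wannabes”. The fitted difference was 2.95-fold between rescued and control Treg cells (log2 1.56, SE 0.205, 95% interval 1.11 to 2.01) and 4.09-fold between rescued Treg cells and “wannabes” (log2 2.03, SE 0.243). Both calls held when any of the 8 male libraries was left out. Between control Treg cells and “wannabes” the difference was log2 0.47 (SE 0.228) and was not called. In the female mice the counts were 10777, 12137 and 9016 in resting and 4814 and 4883 in activated “wannabes”. The activated libraries lay below all resting libraries, by a fitted 2.20-fold (log2 −1.13, SE 0.132), a call that also held without any of the 5 libraries.

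*Bcl10* (chr3:145922804-145934356, plus strand), the adaptor that nucleates the filaments, did not follow *Malt1*. Its counts were 4933, 4459 and 4134 in control Treg, 4153, 4694 and 3621 in rescued Treg and 4976 and 5058 in male “wannabe” libraries. Control and rescued libraries overlapped (log2 −0.12, SE 0.153, interval −0.45 to 0.22). In female mice they were 3588, 3899 and 3696 in resting and 3227 and 3452 in activated “wannabes”, a separation of all libraries with a fitted log2 of −0.16 (SE 0.080) that was not called. The ratio of *Malt1* to *Bcl10* mRNA per kilobase, whose scale depends on the lengths used, lay between 0.207 and 0.218 in control and between 0.497 and 0.865 in rescued Treg libraries, between 0.892 and 1.14 in resting and at 0.517 and 0.545 in activated “wannabes”, and at 0.111 and 0.166 in male “wannabes”.

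Among the canonical subunits, *Rel* (chr11:23736847-23770970, minus strand), which encodes c-Rel, was highest, among the male populations, in control Treg cells. Its counts were 3301, 3329.7 and 3178 in control Treg, 1459.8, 1899 and 1329.6 in rescued Treg and 1343 and 1144 in male “wannabe” libraries. Every control library was above all other male libraries, while rescued and “wannabe” libraries overlapped. The fitted difference was log2 −1.07 (SE 0.186, 2.09-fold lower) in rescued against control Treg cells and log2 1.40 (SE 0.216, 2.63-fold higher) in control Treg cells against “wannabes”. The first of these calls was lost without control library 1 (log2 −1.06), 2 (−1.05) or 3 (−1.09) or rescued library 1 (−1.02) or 3 (−0.96), with fewer libraries in the fit and fold changes close to the full one. The second call held without any male library. In female mice *Rel* was at 1590.4, 1363 and 1698 in resting and at 2043 and 1704 in activated “wannabes”. The libraries did not overlap, by a narrow margin, and the fitted log2 of 0.27 (SE 0.132) was not called.

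*Rela* (chr19:5637483-5648130, plus strand), the main transactivating subunit, did not differ by a call in any of the 4 comparisons. Its counts were 6793, 8196 and 6434 in control Treg, 6967, 6999.98 and 7653 in rescued Treg and 7583 and 11179 in male “wannabes”. Rescued and control libraries overlapped, with a fitted log2 of 0.01 (interval −0.36 to 0.39). In female mice the counts were 7189, 6957 and 7094 in resting and 6403 and 7049 in activated “wannabes” (log2 −0.07, interval −0.26 to 0.11). The count of 11179 in “wannabe” library 2 lay above all other male libraries. Without “wannabe” library 1, *Rela* was called lower in control (log2 −0.65) and in rescued Treg cells (log2 −0.64) than in the remaining “wannabe” library.

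*Nfkb1* (chr3:135584655-135691547, minus strand), which encodes p105 and p50, was the member called higher in male “wannabes” than in each Treg population. Its counts were 8237 and 7555 in “wannabe”, 4387, 4776 and 5323 in control Treg and 4550.3, 4355 and 3807 in rescued Treg libraries. No Treg library reached either “wannabe” library, and control and rescued libraries overlapped. The fitted differences were log2 −0.71 (SE 0.162) for control and log2 −0.90 (SE 0.162) for rescued Treg cells against “wannabes”. The first call was lost without control library 1 (log2 −0.64). In female mice the resting libraries spread widely, at 6832, 8837 and 5125, and the activated libraries lay below them at 4056 and 3738. The fitted log2 of −0.83 (SE 0.216) was called, and the call was lost without resting library 1 (−0.83), activated library 1 (−0.89) or activated library 2 (−0.78).

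Both genes of the noncanonical pair were higher in Treg cells than in male “wannabes”. *Relb* (chr7:19606217-19629438, minus strand) had counts of 464 and 837 in “wannabes”, 1763, 2499 and 2064 in control Treg and 4221, 3153 and 2833 in rescued Treg libraries. The populations did not overlap and stood in that order. The fitted difference was 3.24-fold between control Treg cells and “wannabes” (log2 1.70, SE 0.298) and 5.23-fold between rescued Treg cells and “wannabes” (log2 2.39, SE 0.308), and both calls held without any male library. Rescued against control Treg cells gave log2 0.69 (SE 0.250), which was not called although the libraries did not overlap.

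*Nfkb2* (chr19:46304320-46312385, plus strand), which encodes p100 and p52, had counts of 1741 and 3321 in male “wannabes”, 5502, 5783 and 4923 in control Treg and 5635, 7491 and 7583 in rescued Treg libraries. Both Treg populations lay above the “wannabes” and overlapped each other. The fitted differences against “wannabes” were 2.14-fold in control (log2 1.09, SE 0.260) and 2.73-fold in rescued Treg cells (log2 1.45, SE 0.264). Without “wannabe” library 1 the first fell to log2 0.70 and was not called. In female mice *Nfkb2* was at 5080.4, 4951 and 5074 in resting and at 6263 and 6392 in activated “wannabes”, a tight separation fitted at 1.26-fold (log2 0.33, SE 0.068). This call was lost without activated library 1 (log2 0.34) or 2 (0.30). *Relb* was at 3339, 3175 and 2910.2 in resting and 3149 and 3583 in activated “wannabes”, which overlapped (log2 0.10, interval −0.14 to 0.34). *Nfkb2* shares 531 exonic bases with an antisense lncRNA and 299 with *Psd* on the opposite strand, and whether reads were counted by strand is not given in the sources used here. *Psd* itself had between 77.2 and 303 normalized counts in the 13 libraries.

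The inhibitors differed from each other. *Nfkbia* (chr12:55489410-55492647, minus strand), whose product IκBα retains NF-κB in the cytoplasm, had counts of 13831, 15504 and 14791 in control Treg and 12308, 15414 and 13347 in rescued Treg libraries, which overlapped (log2 −0.10, interval −0.55 to 0.34). The male “wannabe” libraries stood on either side of both, at 11224 and 20898. In female mice all libraries lay close together, at 17388, 17779 and 17024 in resting and 16755 and 17113 in activated “wannabes” (log2 −0.04, interval −0.20 to 0.12). *Nfkbia* was called in none of the 4 comparisons. Without “wannabe” library 1 it was called lower in rescued Treg cells than in the remaining “wannabe” library (log2 −0.61), and without “wannabe” library 2 its change had the opposite sign and was not called (log2 0.24).

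*Tnfaip3* (chr10:19000910-19015657, minus strand), which encodes the ubiquitin-editing brake A20, a Malt1 substrate, varied most within rescued Treg cells and male and activated “wannabes”, with coefficients of variation of 34.1%, 43.3% and 23.9%, against 12.7% in control Treg cells and 4.22% in resting “wannabes”. Its counts were 3089.7, 3185 and 3874 in control Treg, 2752, 4228 and 5617 in rescued Treg and 1562 and 2942 in male “wannabe” libraries. Rescued libraries overlapped both of the others. The fitted log2 was 0.31 (SE 0.280) in rescued against control Treg cells and 0.90 (SE 0.322) in rescued Treg cells against “wannabes”, neither called. The latter was called without rescued library 1 (log2 1.13) or “wannabe” library 2 (log2 1.38). In female mice resting libraries were at 8289.6, 7618 and 7938 and activated libraries at 7254 and 10211, on either side of them (log2 0.14, interval −0.21 to 0.48).

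The 2 male “wannabe” libraries differed widely in several members. Library 1 had the lower count of *Nfkb2*, *Relb*, *Nfkbia*, *Tnfaip3* and *Rela*, with coefficients of variation between 27.1% (*Rela*) and 44.1% (*Nfkb2*), and the higher count of *Malt1* (26.5%), *Rel* (11.3%) and *Nfkb1* (6.1%). *Bcl10* differed by a coefficient of variation of 1.16%. Genes known to respond to tissue dissociation and stress (*Fos*, *Jun*, *Egr1*, *Hspa1a* and others, 11 in all) moved with some comparisons. Of these 11, 6 (54.5%, beside 16.2% of all genes) were called higher in control Treg cells than in “wannabes”, among them *Jun* (log2 2.30), the direction of *Relb*, *Rel* and *Nfkb2*. In rescued Treg cells 4 (36.4%, beside 14.1%) were called higher than in “wannabes”, the direction of *Relb*, *Malt1* and *Nfkb2*. Against control Treg cells 1 (9.09%, beside 2.30%) was called, *Hspa1a*, which was lower (log2 −5.44), the direction of *Rel*. *Hspa1b* was also lower, with no overlap of libraries, but not called (log2 −4.32). Beside 7133 of all 14925 genes, 8 of these 11 had a higher fitted level than in control Treg cells (median log2 0.23), the direction of *Malt1*. Their summed level was between 950 and 1430 CPM in male “wannabe”, 1380 and 2100 in control Treg and 1440 and 2610 in rescued Treg libraries. It was between 5500 and 5590 CPM in resting and between 2910 and 3740 in activated “wannabes”, with 7 of the 11 genes (63.6%, beside 22.5% of all genes) called lower in activated cells and none higher, the direction of *Malt1* and *Nfkb1*. B cell markers, between 9.8 and 12.1 CPM in resting and between 22.5 and 24.7 in activated libraries with none of the 5 at 0 throughout, moved the other way. In male mice some markers of other cells, all at low levels, moved between control Treg libraries and other male libraries. The NK cell markers summed to between 4.61 and 6.83 CPM in “wannabe” and between 0.417 and 1.32 in control libraries, with 2 of the 3 at 0 throughout both, and *Klrb1c* was called lower in control cells. In rescued libraries they summed to between 2.88 and 6.8 CPM (1 of 3 at 0), above every control library, the direction of *Malt1*. *Klrb1c* was at log2 1.96 in rescued against control Treg cells, with no overlap of libraries, and was not called. Myeloid and erythroid sums of rescued and control libraries overlapped. Myeloid markers summed to between 0.63 and 0.886 CPM in “wannabe” (3 of 5 at 0) and between 3.64 and 10.8 in control libraries (1 of 5 at 0), and *Itgam* was called higher in control cells. Erythroid markers lay between 2.33 and 11.8 CPM in “wannabe” (1 of 3 at 0) and between 0.489 and 2.42 in control libraries, with *Hba-a1* called lower in control cells. The part of any of these lists in the members' differences was not tested.

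The change of *Malt1* was opposite in the male and female comparisons. One fit over all 13 libraries took the difference between rescued and control Treg cells less that between activated and resting “wannabes”. It was log2 2.71 for *Malt1* (SE 0.276, interval 2.11 to 3.30) and log2 −1.33 for *Rel* (SE 0.233). These 2 of 9 members were called, against 1.53% of 15201 genes (0.803% higher and 0.730% lower). The *Malt1* call held without any library, and that of *Rel* was lost without activated library 1 (log2 −1.19) or 2 (−1.45). For the other 7 members the difference lay between log2 −0.05 (*Nfkbia*) and 0.66 (*Nfkb1*) and was not called. Sex, age, treatment, *Foxp3* status and experiment all differ between these comparisons and cannot be told apart.

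The makeup of the subunit pool was set out as each subunit's share of the summed level per kilobase. *Rela* mRNA had the largest share in every population. In control Treg cells it was 39.8% ± 2.01 (SD, n = 3), ahead of *Nfkb2* (21.3%), *Nfkb1* (17.9%), *Relb* (14.4%) and *Rel* (6.66%). In rescued Treg cells *Relb* was at 21.3% ± 4.49, with libraries between 17.9% and 26.4% above the control range of 12.8% to 15.6%, and *Rel* at 2.89% ± 0.536. In male “wannabes” the canonical genes *Rela* (52.8%) and *Nfkb1* (30.2%) made up most of the pool, with *Nfkb2* at 9.89% and *Relb* at 4.44%. The female populations resembled each other in *Rela* (36.2% in both), while *Nfkb1* was at 23.1% ± 4.85 in resting and 13.9% ± 1.29 in activated “wannabes” and *Nfkb2* at 18.2% ± 1.37 and 24.1% ± 0.511. The summed level itself was between 172 and 257 normalized CPM per kilobase in the 13 libraries. Shares depend on the length assigned to each gene. With the union of all annotated exons, a choice made after the data were seen, *Nfkb1* was at 8.25% and *Rela* at 47.5% in control Treg cells.

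**Figure D3:**
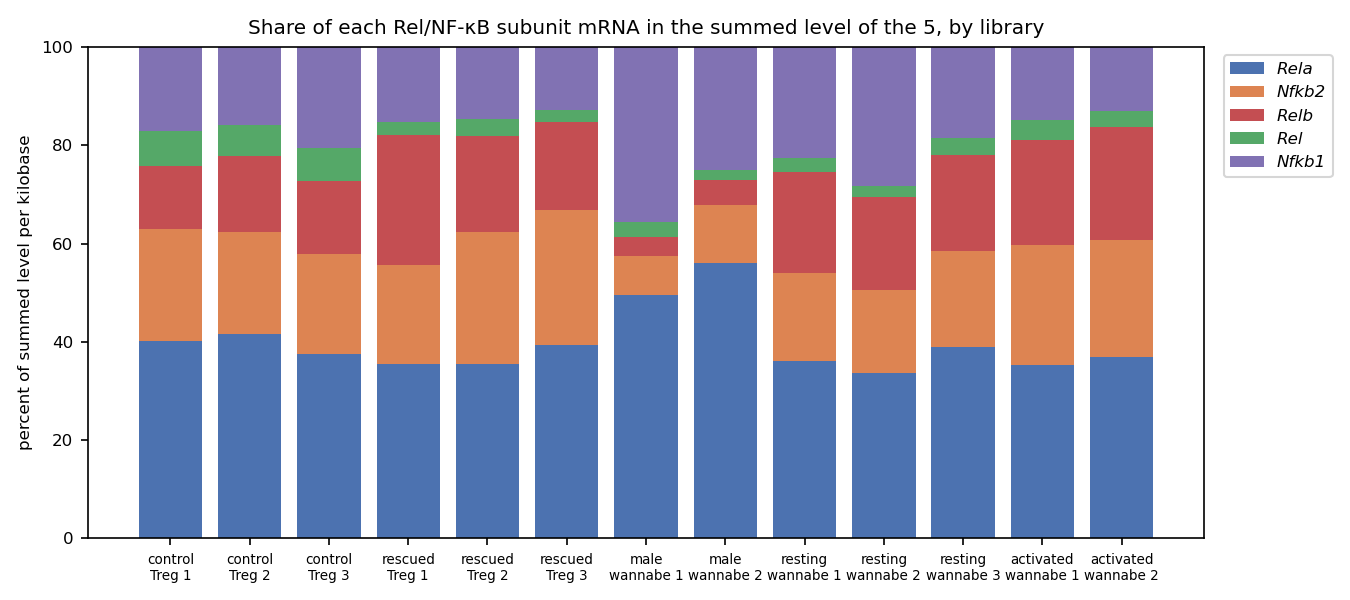
Share (y axis, percent) of each Rel/NF-κB subunit mRNA in the summed level per kilobase of the 5 subunits, 1 bar for each of the 13 libraries. The *Nfkb2* and *Relb* segments are smallest in the male “wannabe” libraries, where their means are 9.89% and 4.44%.

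As a ratio within each library, *Relb* to *Rela* was 0.0753 and 0.0920 in male “wannabes”, between 0.319 and 0.394 in control and between 0.455 and 0.745 in rescued Treg libraries, with no overlap. In the female libraries it lay between 0.504 and 0.625. The ratio of *Nfkb2* to *Nfkb1* was 0.226 and 0.471 in male “wannabes” and at least 0.990 in every Treg library, and in female mice it was between 0.60 and 1.06 in resting and at 1.65 and 1.83 in activated “wannabes”. The ratio of *Rel* to *Rela* was between 0.148 and 0.180 in control Treg libraries and at most 0.116 in all other libraries.

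Of 45 further genes of the pathway, a list compiled from textbook knowledge, with earlier results of these libraries known, of which every gene was tested, 2.22% were called between rescued and control Treg cells, 22.2% between control Treg cells and “wannabes”, 28.9% between rescued Treg cells and “wannabes” and 13.3% between activated and resting “wannabes”, beside the shares of all genes given above. Between rescued and control Treg cells 1 gene rose and none fell. It was *N4bp1*, which encodes an RNA-binding protein cleaved by Malt1, with a normalized count of 2565 ± 318 (SD, n = 3) against 1112 ± 101 (n = 3) (log2 1.21, SE 0.184, edgeR, adjusted p = 0.00938), a call lost without control library 1 (log2 1.14). Between control Treg cells and “wannabes” 9 were higher and 1 lower. Those with the largest differences were *Tab3*, a subunit of the TAK1 kinase complex (log2 1.95, adjusted p = 0.00942, lost without “wannabe” library 1 at log2 1.65), *Chuk*, the IKKα kinase of the noncanonical arm (1.80, 0.000445), *Nfkbiz*, an atypical nuclear IκB (1.62, 0.000506), and *Rc3h1*, the Malt1 substrate Roquin-1 (1.49, 0.000789), while the adaptor *Myd88* was lower (−0.79, 0.00877).

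Between rescued Treg cells and “wannabes” 10 were higher and 3 lower. *Chuk* was at 2898 ± 135 normalized counts in rescued Treg cells and 692 ± 62.5 in “wannabes” (log2 2.07; edgeR, adjusted p = 0.000233). *Tab3* (log2 2.05), *Irak1* (1.91) and *Nfkbiz* (1.88) followed, with adjusted p = 0.00727, 0.00138 and 0.000233. The lower genes were *Zc3h12a*, the Malt1 substrate Regnase-1 (log2 −1.31, adjusted p = 0.0103), *Map3k14*, which encodes NIK (−1.13, 0.0271), and *Myd88* (−0.56, 0.0451). The first was lost without “wannabe” library 2 (log2 −0.996). The call on *Map3k14* was lost without that library (−0.50) or without rescued library 1 (−1.14), 2 (−1.03) or 3 (−1.18), and that on *Myd88* without “wannabe” library 2 (−0.50), any control library (−0.56 each) or rescued library 2 (−0.50) or 3 (−0.48). In a fit of only the groups compared both calls were lost as well (*Map3k14* −1.16, *Myd88* −0.60), and that on *Myd88* also with no filter (−0.56) or with a mean normalized count over 100 (−0.49). Between activated and resting “wannabes” 1 rose and 5 fell, all by small amounts. *Nfkbie*, which encodes IκBε, was higher (log2 0.38, adjusted p = 0.0207), and *Traf6* (−0.45, 0.0085), *Map3k14* (−0.44, 0.0221), *Traf2* (−0.38, 0.0352) and *Tax1bp1* (−0.27, 0.0323) were the lower genes with the largest differences. Each of these 5 calls was lost without activated library 1 (*Nfkbie* at log2 0.39, *Traf6* −0.47, *Map3k14* −0.50, *Traf2* −0.27, *Tax1bp1* −0.27) or 2 (0.36, −0.45, −0.39, −0.52 and −0.27 in that order), which leaves 1 activated library. Without resting library 1 or 3, the calls on *Map3k14* (−0.39 and −0.42), *Traf2* (−0.39 and −0.35) and *Tax1bp1* (−0.26 and −0.26) were lost as well, and *Traf2* was not called with no filter (−0.38).

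**Figure D4:**
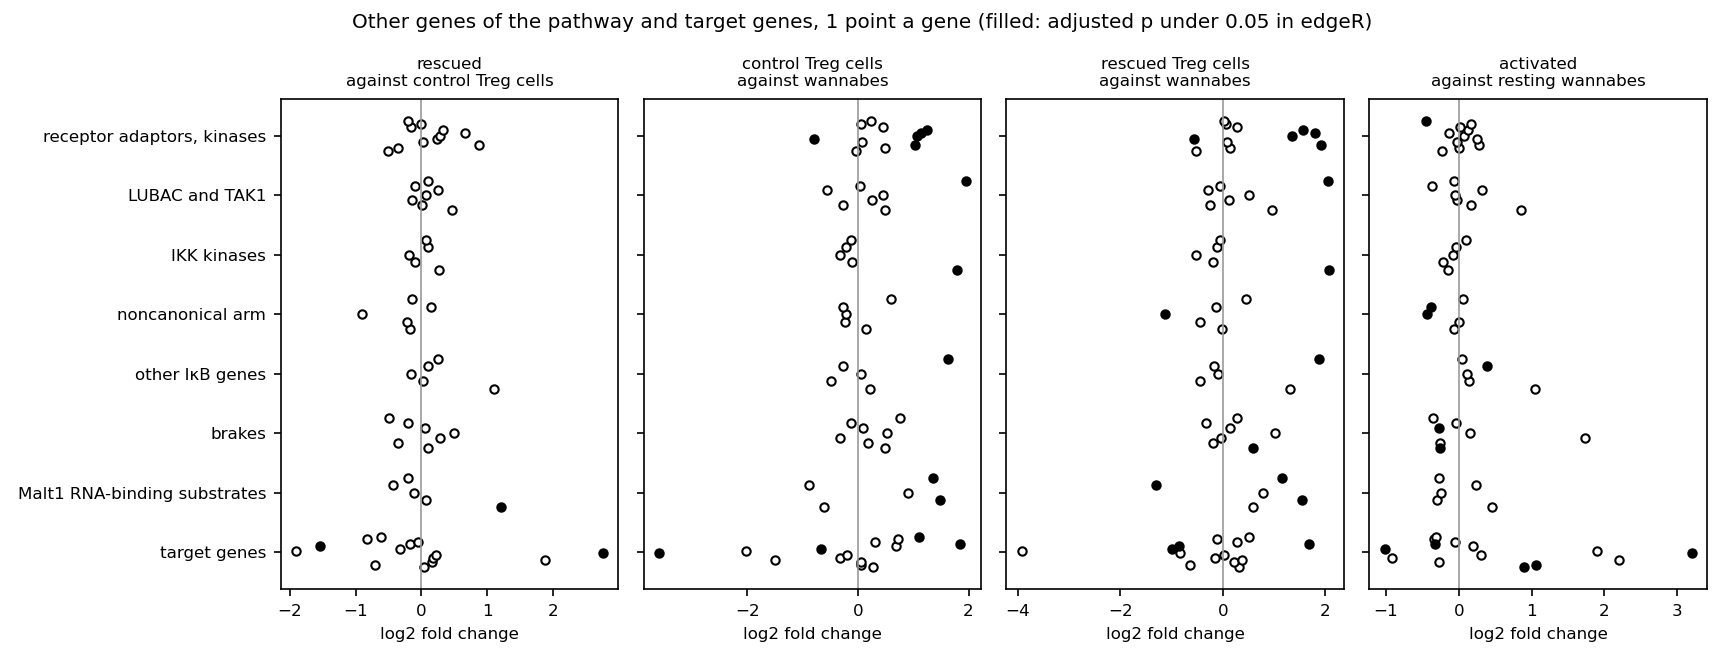
Log2 fold change (x axis) of the 45 further pathway genes and 14 target genes, 1 point a gene, by role (rows) in 4 comparisons (panels), filled where the adjusted p of edgeR was under 0.05. In rescued against control Treg cells 1 pathway gene and 2 target genes are filled.

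Of the 14 textbook NF-κB target genes, 14.3% were called between rescued and control Treg cells, 28.6% between control Treg cells and “wannabes”, 21.4% between rescued Treg cells and “wannabes” and 35.7% between activated and resting “wannabes”, beside 2.30%, 16.2%, 14.1% and 22.5% of all genes. Those called went in both directions in each comparison. Between rescued and control Treg cells 1 rose and 1 fell. *Ier3*, an early response gene, had a normalized count of 627 ± 84.6 in rescued against 92.6 ± 7.59 in control cells (SD, n = 3 each) (log2 2.76, SE 0.271, edgeR, adjusted p = 0.000882), and *Lta*, which encodes lymphotoxin α, at 1133 ± 318 and 3298 ± 385 (log2 −1.54, SE 0.239, adjusted p = 0.00964). Between control Treg cells and “wannabes”, *Ltb*, lymphotoxin β and a ligand of the noncanonical arm (log2 1.85, adjusted p = 0.00429), and *Xiap* (1.11, 0.0482) were higher, and *Ier3* (−3.60, 0.000158) and *Irf4* (−0.66, 0.0367) lower in Treg cells. The *Xiap* call was lost without control library 1 (1.06) or 3 (0.90), “wannabe” library 2 (0.74) or rescued library 2 (1.15) or 3 (1.11), and also with the size factors of DESeq2 (1.07) or in a fit of only the groups compared (1.07), and that of *Irf4* without control library 2 (−0.56) or 3 (−0.65), “wannabe” library 1 (−0.57) or rescued library 2 (−0.63). Between rescued Treg cells and “wannabes”, *Ltb* (1.68, 0.0063) was higher and *Irf4* (−0.99, 0.00565) and *Lta* (−0.85, 0.0497) were lower. The *Lta* call was lost without any 1 of 6 libraries, namely every control library (−0.85 each), “wannabe” library 2 (−0.58) or rescued library 1 (−0.73) or 3 (−0.75), and in a fit of only the groups compared (−0.88). The size of the *Ltb* difference turned on the 2 “wannabe” libraries, which had normalized counts of 4947 and 12738. Without “wannabe” library 2 it was log2 2.64 for control and 2.47 for rescued Treg cells, and without library 1 it was 1.31 and 1.15, called in each case.

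Between activated and resting “wannabes” 3 target genes rose and 2 fell. *Ier3* was at 162 ± 6.91 (SD, n = 2) and 17.5 ± 10.9 (n = 3) normalized counts (log2 3.20; edgeR, adjusted p = 0.00647), *Cd83* at 6829 ± 609 and 3269 ± 758 (1.06, 0.0110) and *Bcl2l1*, which encodes the survival protein Bcl-xL, at 2996 ± 94.2 and 1608 ± 257 (0.90, 0.00718). *Irf4* (−1.02, 0.0136) and *Ltb* (−0.33, 0.0291) were lower. Without activated library 1 or 2, when a single activated library remained, all 5 calls were lost at log2 changes of 3.16 and 3.23 (*Ier3*), 1.15 and 0.96 (*Cd83*), 0.86 and 0.92 (*Bcl2l1*), −1.03 and −1.01 (*Irf4*) and −0.31 and −0.36 (*Ltb*). Without resting library 2 the *Ier3* difference was log2 3.80.

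Genes most like each member over the 13 libraries were found by Pearson's r of log2 CPM, after each experiment's mean was taken out, among 11451 genes. The libraries share groups and batches, so r describes these libraries only. *Nfkb2* was most like *Triobp* (r = 0.969) and *Tradd* (0.966), *Relb* like *Mir6340* (0.989) and *Fam98c* (0.987), and *Rel* like *Ms4a6b* (0.958) and *Dpt* (0.942). *Nfkb1* had r = 0.939 with *Irf4*. *Malt1* was most like *Dnaja4* (0.913) and *Nr1d2* (0.906), *Tnfaip3* like *Hivep3* (0.904) and *Nfatc2* (0.888), *Nfkbia* like *Ubald1* (0.954) and *Dlgap4* (0.916), *Rela* like *Sdr39u1* (0.956) and *Supt5* (0.933) and *Bcl10* like *Ik* (0.938) and *Tsr1* (0.937). No member was among the 2 genes most like another. Among members, r was highest between *Nfkb2* and *Relb* (0.911), followed by *Nfkb2* and *Tnfaip3* (0.852), and it was −0.778 between *Nfkb1* and *Nfkb2*. *Malt1* had r = 0.675 with *Relb* and −0.344 with *Bcl10*.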

How the data were processed

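Bulk RNA-seq libraries of T cells sorted from spleen and lymph nodes were used, 8 of male and 5 of female mice, amplified with a low-input kit. The authors aligned reads with STAR 2.7.3a to GRCm38 (versions per the submitters' processing notes, which also list DESeq2 1.28.1), refined the alignment with GATK's local realignment and derived gene counts in R. The deposited values are raw counts, whole numbers without normalization, in 1 table per experiment. The gene annotation and strand setting are not given in the sources used here. Entries without a gene name (4, at most 0.00841% of counts) were left out.

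Counts were tested in R 4.3.3 with edgeR 4.0.16 (TMM normalization, filterByExpr, quasi-likelihood F test, Benjamini-Hochberg adjustment over all genes tested, adjusted p under 0.05). All male libraries shared a fit, the female libraries had their own, and the difference of changes was a contrast over all 13. The common biological coefficient of variation was 0.510, 0.171 and 0.405 in these fits. Normalized counts use the TMM library size and log2 CPM a prior count of 2. Levels per kilobase use the longest coding transcript of GENCODE M21. The fits were tested on simulated data. A floor of 3 counts is at most 1.17e-05% of a library and covers counting error only; every member lay far above it.

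The members and the pathway, target and marker lists were chosen with earlier results of these data known. No p is printed for a member, and those printed for pathway and target genes, adjusted over all genes tested, are not independent evidence. Named from the pathway and target lists were up to 4 genes with the largest rise and 4 with the largest fall among those called in a comparison. For each member, the 2 genes with the highest correlation were also named. *Psd*, *Bcl3*, *Zc3h12d*, *Rc3h2*, the dissociation genes *Jun*, *Hspa1a* and *Hspa1b* and the cell markers that were called were named outside these rules, after their values were seen. Alternatives were DESeq2 1.42.0, edgeR with the size factors of DESeq2, all genes with no filter, genes with a mean normalized count over 100 only, a replicate block, fits of only the groups compared, and each library left out. Replicate numbers did not pair the samples. No animal, litter or day links equal numbers, and the correlations of same-numbered deviations lay between −0.08 and 0.157. Malt1 promoter sequence was not used here. A gene covered by the correlation rule is not reported here.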

Additional observations from a re-analysis of the deposited data

Results flagged for a closer look

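In 4 genes of the member, pathway and target lists the change in Treg cells (rescued less control) differed from the change in “wannabes” (activated less resting). The test was a contrast over all 13 libraries in edgeR's quasi-likelihood fit, which called 1.53% of all 15201 genes. The difference of log2 changes was 2.71 for *Malt1* and −1.33 for *Rel*, both members, and −1.75 for *Cd83* (adjusted p = 0.0130) and −1.73 for *Lta* (adjusted p = 0.0136), both target genes. The normalized count of *Cd83* was 4227 ± 1077 in rescued against 6891 ± 624 in control cells (SD, n = 3 each), 6829 ± 609 in activated (n = 2) and 3269 ± 758 in resting (n = 3) “wannabes”. *Lta* was at 1133 ± 318 and 3298 ± 385 in the former and at 2046 ± 294 and 1781 ± 108 in the latter pair. Without activated “wannabe” library 2 the calls on *Cd83* (−1.66) and *Lta* (−1.57) were lost. Sex, age, treatment and experiment differ along with the populations and cannot be told apart.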

How the results depend on the processing

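No member change reversed from a called value. Over 5 comparisons, 252 member values under the other settings kept direction and side of the threshold in 248 cases, lost a call in 1 (*Nfkb2* in activated against resting “wannabes” with the replicate block, log2 0.34) and gained it in 3, all *Tnfaip3* in rescued Treg cells against “wannabes” (DESeq2, no filter, mean count over 100). Of 378 values with a library left out, 14 lost and 5 gained a call. Counts of called members with a library left out ranged from 1 to 2 (2 with all libraries) for rescued against control Treg cells, from 1 to 3 (3) for activated against resting “wannabes” and from 1 to 2 (2) for the difference of changes.

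For rescued against control Treg cells, 1 further pathway gene was called, against 5 with DESeq2, 2 with no filter, 2 in a fit of only the groups compared and 0 to 2 with a library left out. For rescued Treg cells against “wannabes”, 3 target genes were called, against 6 with DESeq2 and 2 to 4 with a library left out, and for control Treg cells against “wannabes” 4, against 2 to 4. For activated against resting “wannabes”, 6 further pathway genes and 5 target genes were called, against 0 to 8 and 0 to 6 with a library left out. For the difference of changes, 0 further pathway genes were called by edgeR (5 at an unadjusted p under 0.05), 1 by DESeq2 and 0 with any library left out, and 2 target genes against 0 to 2.

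With the replicate block, 1 of the 6 further pathway genes remained past the threshold in activated against resting “wannabes”. No other call on a member changed with the block, which also lost the calls on *Xiap* (log2 0.99) and *Irf4* (−0.61) in control Treg cells against “wannabes”, on *Myd88* (−0.50) in rescued Treg cells against “wannabes” and on *Ltb* (−0.28) in activated against resting “wannabes”. Over all genes, 343 were called between rescued and control Treg cells, 344 to 1195 under other settings and 114 to 598 with a library left out. The count was 2416 (2056 to 3767 and 1549 to 2423) for control and 2105 (1421 to 3335 and 1570 to 1959) for rescued Treg cells against “wannabes”, 2958 (2045 to 3777 and 751 to 3215) for activated against resting “wannabes” and 233 (238 to 805 and 44 to 430) for the difference of changes. With 2 libraries each, the male and the activated “wannabes” limit the precision, and where 1 of them was left out the remaining library was assumed to vary like the other groups.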

Other observations

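*Bcl3*, a nuclear IκB protein that partners p50 and p52 homodimers, was chosen after its values were seen. It had between 664 and 894 normalized counts in control Treg, 1113 and 2584 in rescued Treg and 416 and 899 in male “wannabe” libraries, and between 2088 and 4073 in resting and 5050 and 6304 in activated “wannabes”. Its log2 change was 1.11 (SE 0.370) in rescued against control Treg cells and 1.04 (SE 0.301) in activated against resting “wannabes”, with no overlap of libraries in either, and edgeR's adjusted p was 0.159 and 0.0510. The opposite signs seen for *Malt1* in these comparisons were thus not seen for *Bcl3*, for which the difference of changes was log2 0.07 (interval −1.09 to 1.23).

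Among the 5 listed RNA-binding substrates of Malt1, *Rc3h1* was at 928 ± 4.21 (SD, n = 2) in male “wannabes” and at 2600 ± 112 and 2717 ± 76.9 in control and rescued Treg cells (n = 3 each), and *Zc3h12d* at 1183 ± 291, 3032 ± 829 and 2634 ± 167. *Rc3h2* was at 1179 ± 706, 2197 ± 506 and 2027 ± 150.4, and *N4bp1* at 1701 ± 135, 1112 ± 101 and 2565 ± 318, in the same order of populations. *Zc3h12a* was at 1410 ± 437 in “wannabes”, 765 ± 148 in control and 569 ± 60.6 in rescued Treg cells. It was not called in control Treg cells against “wannabes” (log2 −0.88), and its call in rescued Treg cells against “wannabes” was lost without “wannabe” library 2.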
